A study of Mus musculus with 6 samples.

Results

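The amino acid transporter genes were followed in the muscle of mice that lack *Tarsl2*, which encodes a threonyl-tRNA synthetase-like protein. The members were all protein-coding genes of the count table named *Slc1a*, *Slc7a*, *Slc36a*, *Slc38a* or *Slc43a* with a number, and *Slc3a2*. This gave 42 of 53084 genes, of which 22027 are protein-coding. The rule also takes *Slc7a6os* by its name, which lies on the strand opposite to *Slc7a6* at a distance of 2010 bp and encodes no transporter, so that 41 members are transporters. RNA was sequenced from 3 *Tarsl2*+/+ mice (583, 584 and 595) and 3 *Tarsl2*-/- mice (588, 589 and 591), all male C57BL/6 animals of 6 weeks, with 1 library per mouse. The library of mouse 589 is titled KOT1-589, whereas the other *Tarsl2*-/- libraries are titled KO1-588 and KO1-591. What the added letter stands for is not given in the paper. The *Tarsl2*-/- allele was made by injecting Cas9 and a pair of guide RNAs against the introns around exon 3 into C57BL/6J zygotes, so the gene was disrupted in every tissue, not in muscle alone. The number of founder lines and the muscle that was taken are not given in the sources used here.

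Amino acids cross membranes only through carrier proteins. Some carriers use the sodium gradient to accumulate amino acids in the cell, some use protons, and others exchange one amino acid for another, so that a concentrative carrier and an exchanger together set which amino acids a cell holds. Skeletal muscle is the main store of amino acids of the body and releases glutamine and alanine in fasting. A group of these carriers sits on lysosomes, where amino acid levels are read out to the growth kinase complex mTORC1, and several carrier genes are targets of the transcription factor ATF4, which is made when amino acids or charged tRNAs run short.

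Library totals lay between 16845503 and 19512588 counts in *Tarsl2*+/+ and between 16176591 and 20123767 in *Tarsl2*-/- mice, where 3 counts correspond to 0.146 to 0.187 CPM (counts scaled to the library size after TMM normalization). Counts of *Tarsl2* were 456, 605 and 464 with the intact gene and 40, 30 and 37 after its deletion (log2 fold change -3.81, SE 0.16, adjusted p = 6.45e-07 by edgeR's quasi-likelihood test). The sum of 10 muscle fibre markers was 118779 to 137612 CPM. The sample records also mention retina, whereas 10 retinal markers had at most 7 counts in any library.

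Of the 42 members, 27 had enough counts to be tested and 15 did not. No tested member passed an adjusted p of 0.05 in the quasi-likelihood test of edgeR, adjusted by Benjamini-Hochberg over all 15075 tested genes, of which 342 (2.27%) did. A count of 0 among 27 is close to this background. DESeq2 called 719 of 14490 genes (4.96%) and limma-voom 318 of 15075 (2.11%), and neither called a member. At an unadjusted p under 0.05 there were 3 members by edgeR (*Slc43a1*, *Slc7a2* and *Slc36a2*, 11.1% of 27, against 19.8% of all tested genes) and 2 by each of the other tools. Fold changes are given below as the log2 ratio of *Tarsl2*-/- over *Tarsl2*+/+. They were positive for 15 members (55.6%, against 50.4% of all tested genes) and negative for 12. Their median was 0.03 beside 0.00 over all tested genes, and the median size was 0.18 beside 0.17.

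The range ran from -0.33 for *Slc7a7* to 0.90 for *Slc36a2*, and 21 of 27 were under 0.3 in size. The adjusted p-values lay between 0.135 and 0.977. The 95% interval of the difference lay within 1.5-fold either way for 14 members and within 2-fold for 23, so changes beyond those sizes lie outside the intervals of these genes. The interval reached past 2-fold for *Slc36a2*, *Slc7a10* and *Slc1a3* on the higher side and for *Slc38a1* on the lower side. All but 3 intervals (24 of 27) held 0. In muscle as a bulk tissue, fewer cells of a type and less RNA per cell cannot be told apart.

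**Figure D1:**
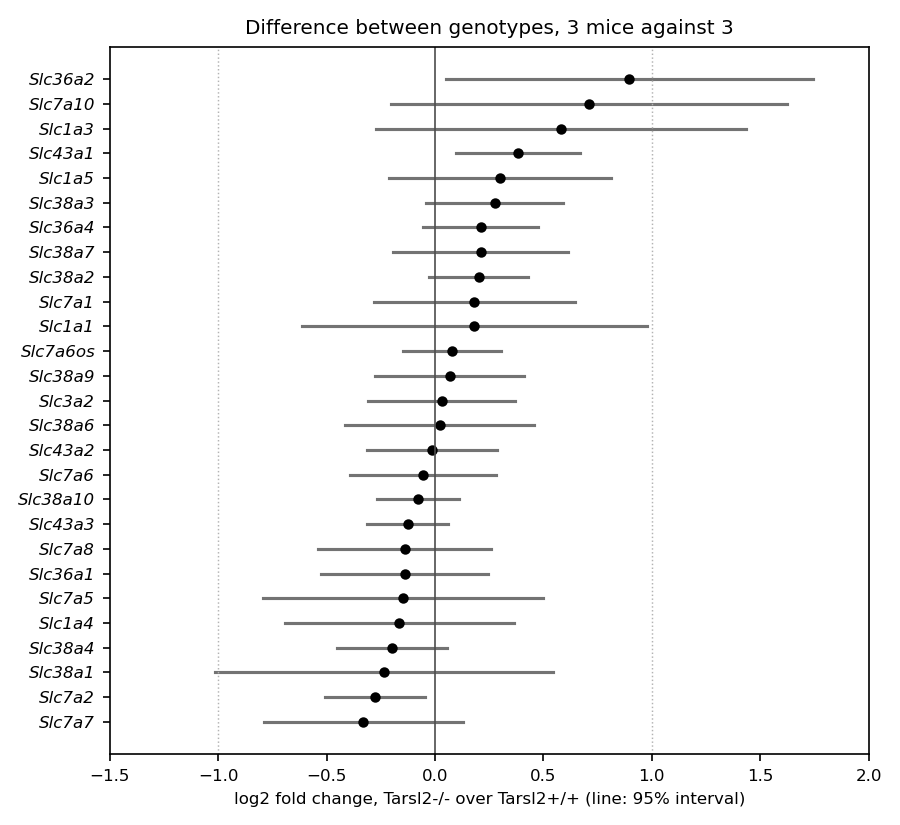
Log2 fold change of each of the 27 tested members, *Tarsl2*-/- over *Tarsl2*+/+, as a point with its 95% interval from edgeR as a line. The intervals of *Slc43a1*, *Slc36a2* and *Slc7a2* stay clear of 0, and dotted lines mark a 2-fold difference.

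Levels of different genes were compared per kilobase of the gene length in the table. The order was led by *Slc1a5*, a sodium-dependent exchanger of glutamine and other neutral amino acids, with a mean of 20.1 CPM per kb over the 6 mice. It was followed by the sodium-coupled carriers *Slc38a2* at 13.4 and *Slc38a4* at 10.7 CPM per kb. Next came *Slc43a3*, whose protein carries purine nucleobases rather than amino acids, at 8.79, and *Slc38a10* at 8.23 CPM per kb. *Slc43a1*, *Slc3a2* and *Slc36a2* had mean levels of 5.09, 4.85 and 4.83 CPM per kb. The place of *Slc36a2* rested on mouse 589, at 10.8 CPM per kb against 2.10 to 5.06 in the other mice, and without that mouse its mean was 3.63, under the 3.73 of *Slc7a6os*. The values of the 6 mice overlapped between each of these genes and the next in the order, except between *Slc38a10* and *Slc43a1*. The lowest tested members were *Slc38a1* at 0.159 and *Slc1a1* at 0.145 CPM per kb. With the longest coding transcript as the length, 7 of these 8 stayed among the leading 8, and *Slc7a6os* took the place of *Slc3a2*. All members together took 0.0429% to 0.0591% of a library's counts, the highest share in mouse 589.

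**Figure D2:**
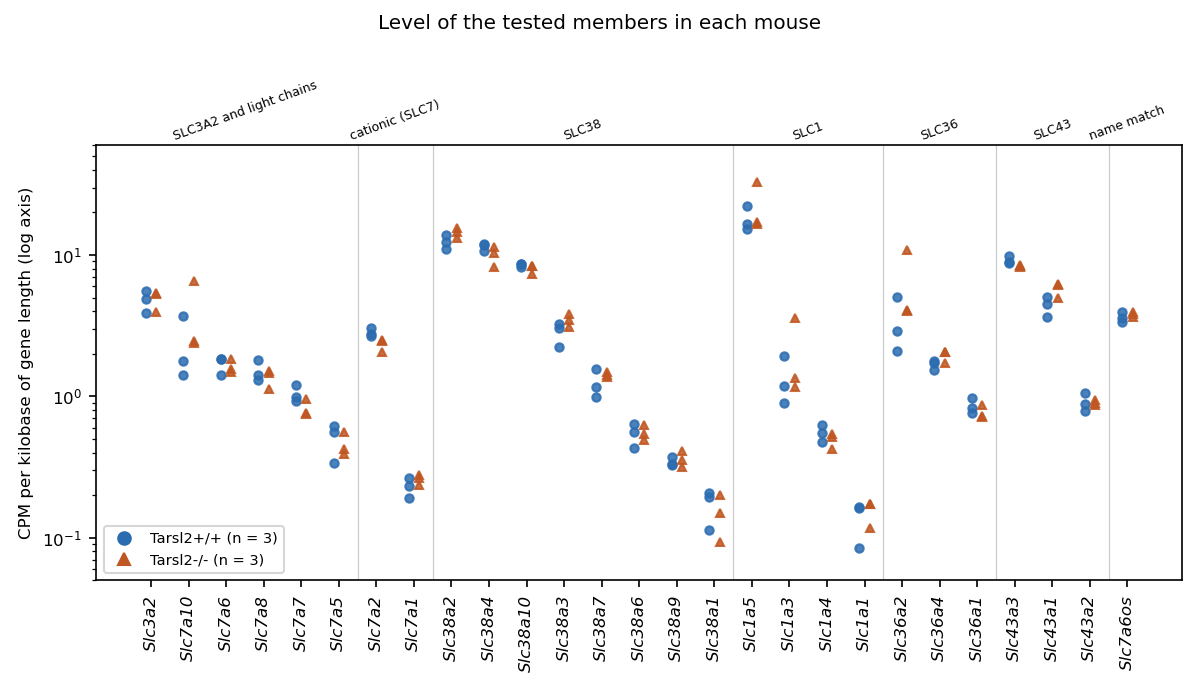
Level of the 27 tested members in CPM per kilobase of gene length on a log axis, one point per mouse, with *Tarsl2*+/+ as circles and *Tarsl2*-/- as triangles, grouped by family. The levels range from 0.145 CPM per kb as a mean for *Slc1a1* to 20.1 for *Slc1a5*, and a single *Tarsl2*-/- mouse stands above the others in *Slc7a10*, *Slc1a5*, *Slc1a3* and *Slc36a2*.

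*Slc3a2* encodes the heavy chain that carries several SLC7 light chains to the cell surface. It had 17.2, 19.8 and 13.8 CPM in *Tarsl2*+/+ mice 583, 584 and 595 and 13.9, 19.1 and 18.8 CPM in *Tarsl2*-/- mice 588, 589 and 591. The genotypes overlapped throughout, with a log2 fold change of 0.03 (SE 0.15, adjusted p = 0.944). Of its light chains, *Slc7a5*, the exchanger that brings leucine and other large neutral amino acids into cells, was low in muscle, with means of 1.87 and 1.69 CPM and a log2 fold change of -0.15 (adjusted p = 0.832). *Slc7a8*, a second exchanger of neutral amino acids, and *Slc7a6*, which exchanges cationic against neutral ones, were at log2 fold changes of -0.14 and -0.06 (adjusted p = 0.722 and 0.888). *Slc7a7*, which does the same and is known from macrophages, kidney and gut, had 3.98, 3.24 and 3.04 CPM in *Tarsl2*+/+ and 2.45, 2.49 and 3.16 CPM in *Tarsl2*-/- mice. Only mouse 591 reached into the *Tarsl2*+/+ range, and the log2 fold change was -0.33 (95% interval -0.79 to 0.13, adjusted p = 0.415). Leukocyte markers were lower in the same *Tarsl2*-/- mice. All 14 had negative log2 fold changes, 8 of them past the threshold (1 to 11 with each mouse left out in turn, the fewest without mouse 583), and their sum was 1693 to 1933 CPM in *Tarsl2*+/+ and 991 to 1255 CPM in *Tarsl2*-/- mice. Their part in the value of *Slc7a7* was not tested. *Slc7a7* also overlaps *Oxa1l* on the opposite strand, and the use of strand in the authors' counting is not given in the sources used here.

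Per kilobase, *Slc3a2* stood at 4.89, 5.60 and 3.91 CPM in *Tarsl2*+/+ and 3.95, 5.43 and 5.33 in *Tarsl2*-/- mice. The 5 tested light chains (*Slc7a5*, *Slc7a6*, *Slc7a7*, *Slc7a8* and *Slc7a10*) summed to 6.37, 8.44 and 6.31 CPM per kb in *Tarsl2*+/+ and 6.33, 10.9 and 7.03 in *Tarsl2*-/- mice. Light over heavy chain was thus highest in mouse 589, at 2.01, against 1.30 to 1.61 in the other 5 mice. Without *Slc7a10* the ratio in mouse 589 was 0.795, the lowest of the 6 mice, which had up to 1.16. The high sum in that mouse therefore rested on *Slc7a10* alone.

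**Figure D3:**
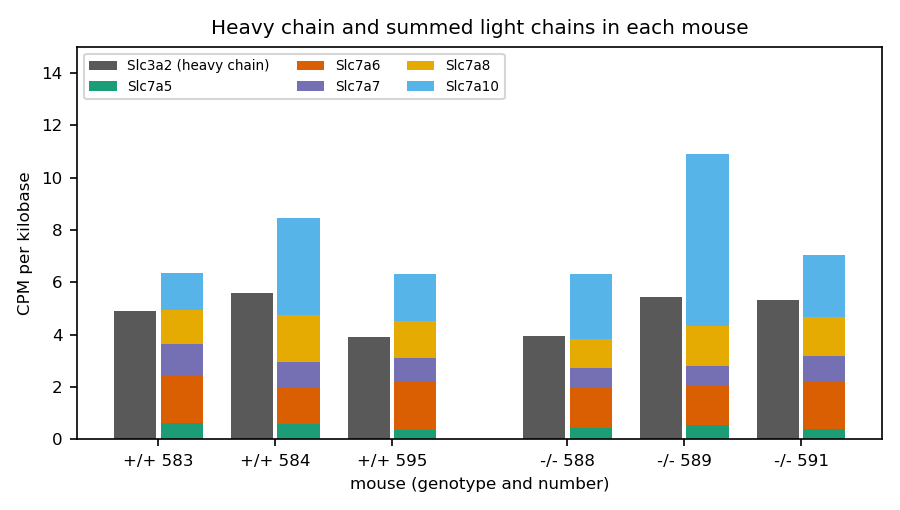
Level of the heavy chain *Slc3a2* (grey bars) beside the stacked levels of its 5 tested light chains, in CPM per kilobase, for each mouse. *Slc7a10* accounts for 6.59 of the 10.9 CPM per kb of light chain in *Tarsl2*-/- mouse 589 and for 3.67 of 8.44 in *Tarsl2*+/+ mouse 584.

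*Slc7a10* encodes an exchanger of small neutral amino acids such as serine, known from brain and from adipocytes. It varied between mice together with 3 carriers of other families, *Slc36a2*, *Slc1a3* and *Slc1a5*, and these 4 were picked out after their values were seen. The promoters of *Slc7a10* and *Slc1a3* are shown because, of these 4 genes, only they had an entry in the set of promoters used here. The sequences are the 250 bases before the start of the gene on GRCm38.p6, from RefSeq, 5′ to 3′ on the strand of the gene, with each CG dinucleotide in capitals. *Slc7a10* lies on the plus strand, at chr7:35186135-35186384, and *Slc1a3* on the minus strand, at chr15:8710808-8711057.
Slc7a10: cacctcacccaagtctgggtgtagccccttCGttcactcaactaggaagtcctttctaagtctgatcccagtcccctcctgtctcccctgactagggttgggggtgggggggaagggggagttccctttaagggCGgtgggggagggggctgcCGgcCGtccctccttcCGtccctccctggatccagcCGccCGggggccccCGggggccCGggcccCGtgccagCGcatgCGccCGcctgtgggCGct
Slc1a3: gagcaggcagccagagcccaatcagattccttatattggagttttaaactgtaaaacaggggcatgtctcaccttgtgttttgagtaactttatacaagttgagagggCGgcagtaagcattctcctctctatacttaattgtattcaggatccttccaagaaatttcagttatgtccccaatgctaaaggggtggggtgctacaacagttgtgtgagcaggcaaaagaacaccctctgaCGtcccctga
The composition of the 2 stretches differs. The *Slc7a10* stretch holds 69.6% G and C and 14 CG dinucleotides, and the *Slc1a3* stretch 44.8% and 2, where the medians over the same 250 bases of 32851 promoters were 52.4% and 6.

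*Slc7a10* had 2.98, 7.76 and 3.78 CPM in *Tarsl2*+/+ mice 583, 584 and 595 and 5.24, 13.9 and 5.01 CPM in *Tarsl2*-/- mice 588, 589 and 591. *Slc36a2*, a proton-coupled carrier of glycine and proline known as a surface protein of adipocytes, had 9.47, 16.5 and 6.82 CPM in *Tarsl2*+/+ and 13.1, 35.2 and 13.3 CPM in *Tarsl2*-/- mice. *Slc1a3*, a glutamate carrier best known from astrocytes, had 10.2, 16.5 and 7.66 CPM in *Tarsl2*+/+ and 11.5, 30.6 and 9.87 CPM in *Tarsl2*-/- mice. In each of these genes mouse 584 was the highest of its genotype and mouse 589 the highest of all 6, and the genotypes overlapped. *Slc1a5* showed this order with smaller differences, at 69.0, 92.9 and 63.8 CPM in *Tarsl2*+/+ and 69.3, 137 and 72.0 CPM in *Tarsl2*-/- mice.

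Mouse 589 stood above the mean of the other *Tarsl2*-/- mice by a ratio of 2.67 for *Slc36a2*, 2.72 for *Slc7a10*, 2.86 for *Slc1a3* and 1.94 for *Slc1a5*. Mouse 584 stood above the other *Tarsl2*+/+ mice by ratios of 2.02, 2.29, 1.85 and 1.40 for the same genes in the same order. These were the only members in which both mice stood at least 25% above the others, that is 4 of 27 (14.8%), against 502 of 15075 tested genes (3.33%). The genes were defined by that cut, so the share is a description. The 8 adipocyte markers followed the same mice. Each was highest in mouse 584 among *Tarsl2*+/+ and in mouse 589 among *Tarsl2*-/- mice, with ratios of 1.32 to 2.23 and 1.60 to 3.10. Their sum was 3284, 4415 and 2884 CPM in *Tarsl2*+/+ and 3435, 7584 and 3846 CPM in *Tarsl2*-/- mice. The defining marker *Adipoq*, the adipocyte hormone adiponectin, had ratios of 1.81 and 2.61. Brown adipocyte markers followed these mice only in part. Of 4 such markers, 2 were highest in mouse 584 among *Tarsl2*+/+ and 2 in mouse 589 among *Tarsl2*-/- mice. *Ucp1* had 62.1, 58.1 and 3.88 CPM in *Tarsl2*+/+ and 15.5, 57.0 and 36.5 CPM in *Tarsl2*-/- mice. All 10 slow fibre markers were also highest in mouse 589 among *Tarsl2*-/- mice, but only 1 of 10 was highest in mouse 584 in its genotype. The part of these cell types in the 4 genes was not itself tested. A fit of the genotype difference with the adipocyte marker level as a covariate is given below.

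**Figure D4:**
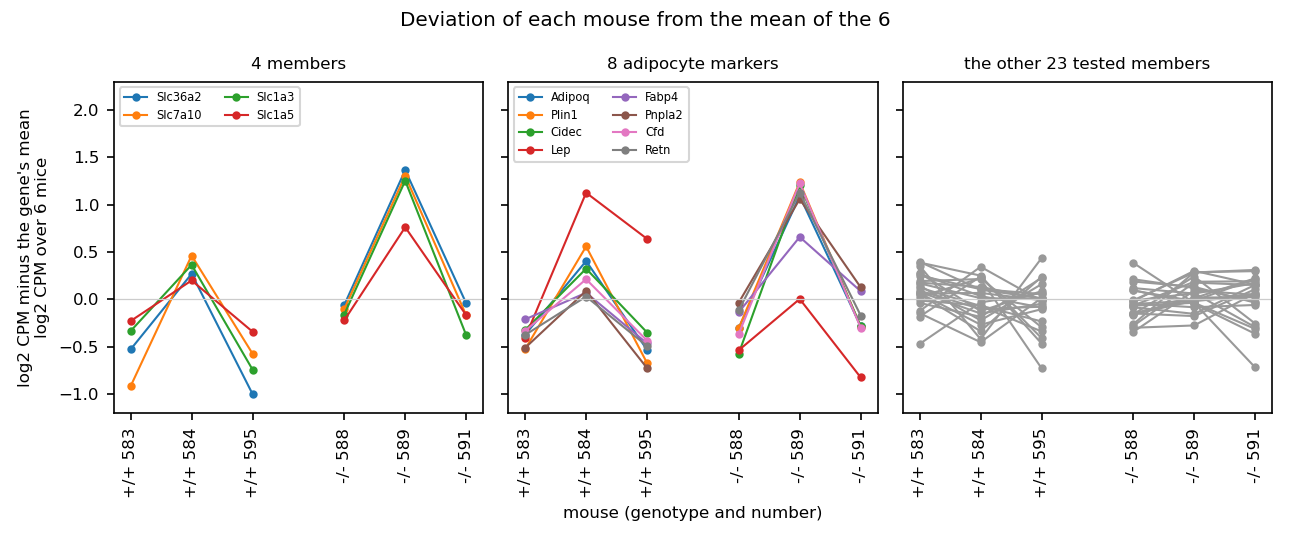
Deviation of each mouse from the gene's mean log2 CPM over the 6 mice, for *Slc36a2*, *Slc7a10*, *Slc1a3* and *Slc1a5* (left), the 8 adipocyte markers (middle) and the other 23 tested members (right), with points joined within a genotype. In the left and middle panels mice 584 and 589 are the highest of their genotypes for every gene, and in no gene of the right panel do both mice stand 25% or more above the others of their genotype.

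For none of these 4 genes did the difference between genotypes pass the test. The log2 fold change was 0.90 for *Slc36a2* (95% interval 0.05 to 1.74, adjusted p = 0.225), from means of 10.9 ± 4.98 CPM in *Tarsl2*+/+ and 20.5 ± 12.7 CPM in *Tarsl2*-/- mice (SD, n = 3 each). It was 0.71 for *Slc7a10* (-0.20 to 1.62, adjusted p = 0.375), 0.58 for *Slc1a3* (-0.27 to 1.43, adjusted p = 0.442) and 0.30 for *Slc1a5* (-0.21 to 0.81, adjusted p = 0.518). Mouse 589 decided much of these values. Without it they were 0.27, 0.08, -0.10 and -0.09. Without mouse 584, *Slc36a2* was at 1.33 (adjusted p = 0.0882). With mice 584 and 589 both left out they were 0.70, 0.60, 0.26 and 0.09, and *Slc36a2* had an adjusted p of 0.0655 by edgeR. With the adipocyte marker level as a covariate in place of this they were 0.49, 0.29, 0.13 and 0.04, and *Slc36a2* had an adjusted p of 0.0695. The 8 adipocyte markers themselves had 7 positive log2 fold changes with a median of 0.47, and 4 had an unadjusted p under 0.05 by edgeR. The covariate was thus not independent of genotype, and this fit cannot separate the 2. The 4 genes were picked for high values in mice 584 and 589, in which the adipocyte markers were also highest. The adjusted p-values of these added fits are therefore a description only.

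*Slc43a1* had the smallest p of the members. It encodes a facilitated carrier of leucine and other branched-chain amino acids and phenylalanine. It had 25.9, 20.9 and 28.9 CPM in *Tarsl2*+/+ and 28.4, 34.9 and 35.5 CPM in *Tarsl2*-/- mice. Mouse 588 fell within the *Tarsl2*+/+ range, and the means were 25.3 ± 4.04 and 32.9 ± 3.92 CPM (SD, n = 3 each). The log2 fold change was 0.38 (SE 0.13, 95% interval 0.10 to 0.67, adjusted p = 0.135). Its neighbour *Slc43a3*, on the same strand of chromosome 2 at a distance of 72984 bp, had 44.1, 39.5 and 39.3 CPM in *Tarsl2*+/+ and 38.0, 37.0 and 37.6 CPM in *Tarsl2*-/- mice. All *Tarsl2*-/- values lay under all *Tarsl2*+/+ values, by a small margin, and the log2 fold change was -0.13 (SE 0.09, adjusted p = 0.448). *Slc43a2*, a carrier of the same substrates as *Slc43a1*, was at -0.01 (adjusted p = 0.977).

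Of the cationic amino acid carriers, which take up arginine, lysine and ornithine, *Slc7a2* was the main one in muscle, with 2.59 CPM per kb against 0.244 for *Slc7a1*. *Slc7a2* had 27.9, 25.3 and 24.4 CPM in *Tarsl2*+/+ and 22.4, 22.9 and 18.9 CPM in *Tarsl2*-/- mice. The genotypes did not overlap, and the means were 25.9 ± 1.84 and 21.4 ± 2.18 CPM (SD, n = 3 each). The log2 fold change of -0.28 (SE 0.11, 95% interval -0.51 to -0.04) had an adjusted p of 0.176, and an exact two-sided permutation test gave p = 0.1, the smallest that 3 mice against 3 allow. *Slc7a2* and *Slc43a3* were the only members without overlap. All *Tarsl2*-/- mice were lower in these 2 (7.41% of 27), against 12% of all tested genes, and all were higher in 0 members, against 12.6%. *Slc7a1* was at 0.18 (adjusted p = 0.687).

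The SLC38 family holds sodium-coupled carriers of glutamine, alanine and other small neutral amino acids, and 8 of its 11 members were tested. *Slc38a2*, which cells raise when amino acids are short, had 64.6, 51.3 and 57.5 CPM in *Tarsl2*+/+ and 71.6, 67.1 and 60.6 CPM in *Tarsl2*-/- mice. The genotypes overlapped through mice 583 and 591, with a log2 fold change of 0.20 (95% interval -0.03 to 0.43, adjusted p = 0.311). *Slc38a4*, its neighbour on chromosome 15 and an imprinted gene, had 47.6, 46.2 and 42.4 CPM in *Tarsl2*+/+ and 45.1, 40.8 and 32.8 CPM in *Tarsl2*-/- mice. Its log2 fold change was -0.20 (95% interval -0.45 to 0.05, adjusted p = 0.371), of the opposite sign to that of *Slc38a2*. *Slc38a1*, the third gene of that cluster, was near the filter on low counts, with -0.24 (adjusted p = 0.766).

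*Slc38a3*, which carries glutamine, histidine and asparagine, had 11.9, 16.1 and 17.2 CPM in *Tarsl2*+/+ and 16.2, 20.3 and 18.3 CPM in *Tarsl2*-/- mice (log2 fold change 0.27, 95% interval -0.04 to 0.59, adjusted p = 0.318). Its lowest value was that of mouse 583, and mouse 588 fell between the *Tarsl2*+/+ mice. *Slc38a10* was close to even, with 55.1, 55.3 and 52.4 CPM in *Tarsl2*+/+ and 47.2, 53.5 and 53.6 CPM in *Tarsl2*-/- mice (log2 fold change -0.08, adjusted p = 0.664). The lysosomal members *Slc38a9*, an arginine sensor for mTORC1, and *Slc38a7*, which exports glutamine from lysosomes, were at log2 fold changes of 0.07 and 0.21 (adjusted p = 0.860 and 0.572). *Slc38a6* was at 0.02 (adjusted p = 0.971).

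Of the proton-coupled SLC36 carriers other than *Slc36a2*, *Slc36a4* had 11.7, 11.3 and 10.03 CPM in *Tarsl2*+/+ and 11.3, 13.4 and 13.5 CPM in *Tarsl2*-/- mice. Mouse 588 fell within the *Tarsl2*+/+ range, and the log2 fold change was 0.21 (95% interval -0.06 to 0.48, adjusted p = 0.368). *Slc36a1*, which moves small amino acids out of lysosomes, was at -0.14 (adjusted p = 0.707), although it lies 19272 bp from *Slc36a2*. Of the other SLC1 carriers, *Slc1a4*, an exchanger of alanine, serine and cysteine, was at -0.17 (adjusted p = 0.754) and the glutamate carrier *Slc1a1* at 0.18 (adjusted p = 0.834). *Slc7a6os*, which is no transporter, was at 0.08 (adjusted p = 0.728).

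The 15 members under the filter had at most 11 counts in any library, and together 19 to 34 counts per library. *Slc7a4*, an SLC7 protein without a settled substrate, had 4 to 11 counts per library, *Slc7a13*, a kidney light chain, 2 to 9, and *Slc1a2*, the main glutamate carrier of astrocytes, 1 to 9. *Slc1a6*, a glutamate carrier of the cerebellum, had 1 to 7 counts. *Slc7a11*, the cystine and glutamate exchanger that is a known ATF4 target, had 1, 2 and 6 counts in *Tarsl2*+/+ and 1, 1 and 3 in *Tarsl2*-/- mice. A change of these genes was not detectable at this depth. *Slc36a3* had at most 4 counts, *Slc38a5*, a glutamine carrier, at most 6 and *Slc7a3*, a cationic carrier, at most 3. *Slc7a14*, *Slc38a8*, *Slc7a15*, *Slc38a11* and *Slc1a7* had at most 2, 2, 1, 1 and 1. *Slc7a9* and *Slc7a12*, light chains of kidney, had 0 counts in all 6 libraries, which allows up to 0.146 to 0.187 CPM in a library. *Slc7a9* lies 247681 bp from *Slc7a10*, which had 689 counts over the 6 libraries, and *Slc36a3*, with 11 counts, lies 6761 bp from *Slc36a2*, with 1674.

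Promoters of 31 of the 42 members, 20 of them tested, were found in RefSeq. The letters TGATGNAA, the core of the element that ATF4 binds, were searched on both strands from 250 bases before to 50 after the start. They were in 3 of 29 promoters of tested members, those of *Slc1a4* and *Slc7a7*, and in 3.97% of 32851 promoters of all genes. A match is a description of the sequence and says nothing of binding.

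Carriers outside the rule were read from a list of 32 genes, of which 16 were tested. *Slc25a22*, a mitochondrial glutamate carrier, was the only one past the threshold. It had 7.31, 10.5 and 7.98 CPM in *Tarsl2*+/+ and 12.9, 19.6 and 13.1 CPM in *Tarsl2*-/- mice, without overlap, and rose by 0.82 on the log2 scale (SE 0.19, adjusted p = 0.0481). This call was lost with limma-voom (adjusted p = 0.0549) and when any single mouse other than 584 was left out (adjusted p = 0.0601 to 0.167 by edgeR), with log2 fold changes of 0.60 without mouse 589 to 0.99 without mouse 584. It held with mice 584 and 589 both left out (0.77, adjusted p = 0.0295) and with the adipocyte covariate (0.67, adjusted p = 0.0108). The 16 tested genes of the list had 11 positive and 5 negative log2 fold changes with a median of 0.15, where 50.4% of all tested genes were positive. At an unadjusted p under 0.05 by edgeR there were 4 of the 16, against 19.8% of all tested genes. *Slc25a12*, the mitochondrial aspartate and glutamate exchanger of muscle, was at 0.29 (adjusted p = 0.108), and the taurine carrier *Slc6a6* at 0.26 (adjusted p = 0.184). Of the genes through which mTORC1 reads amino acids, 35 of 37 names were in the table, all 35 were tested and 0 passed the threshold by edgeR, against 2.27% of all tested genes (7 at an unadjusted p under 0.05, against 19.8% of all, smallest adjusted p 0.1004, median 0.03). Of 27 genes of the ATF4 pathway 25 were tested and 0 passed by edgeR (4 at an unadjusted p under 0.05, smallest adjusted p 0.0918, median 0.00). These counts are close to or under the background. In this last list 1 gene passed without mouse 584, 1 with the adipocyte covariate and 5 without a filter on low counts, all higher in *Tarsl2*-/- muscle. Of its 25 tested genes, 8 were highest in mouse 584 and 12 in mouse 589 within their genotype. *Asns*, *Phgdh* and *Cth* stood at least 25% above the others in both mice. Their ratios were 2.06, 1.67 and 1.78 in mouse 584 and 2.12, 2.45 and 1.31 in mouse 589.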

How the data were processed

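Muscle RNA of 3 *Tarsl2*+/+ and 3 *Tarsl2*-/- mice was measured by RNA-seq. Reads were aligned to mm10 by the authors with HISAT2, and they deposited raw counts of reads per gene. The sample records list Bowtie 0.12.2 and mm8. The table's coordinates were identical to GENCODE vM21 on GRCm38 for 38 of 42 members. The counting tool, its annotation and its use of strand are not given in the sources used here, and 5 tested members overlap another gene with at least 10 counts on the opposite strand (*Slc1a1*, *Slc38a10*, *Slc43a2*, *Slc7a7* and *Slc7a10*).

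Genotypes were taken from the sample records. Genes were kept by filterByExpr (minimum count 10, minimum total 15), scaled by TMM and tested for genotype, without a covariate, by glmQLFTest after glmQLFit in edgeR 4.0.16 (R 4.3.3), with Benjamini-Hochberg adjustment over all tested genes and a threshold of 0.05. CPM values are scaled to the library size after TMM. The SE of a log2 fold change is its size divided by the square root of F. P-values set the genotype difference of a gene against the spread between mice. The common biological coefficient of variation over all tested genes was 12.1%, and single members differ from it. Floors of 3 counts cover counting error only, since reads carry no molecular identifiers.

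Alternatives were DESeq2 1.42.0, limma-voom (limma 3.58.1), RLE and upper quartile scaling, no filter, at least 10 counts in every library, protein-coding genes only and each mouse left out. Leaving out mice 584 and 589 together, the adipocyte covariate and transcript lengths were added after the data were seen. Members and gene lists were chosen with earlier results of these data known. Values per mouse are given for the 10 members with the smallest p, since none passed the threshold, and for the 8 with the highest level per kilobase.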

Additional observations from a re-analysis of the deposited data

How the results depend on the processing

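The count of 0 members past the threshold held with DESeq2, limma-voom, RLE and upper quartile scaling, at least 10 counts in every library, protein-coding genes only, each mouse left out, mice 584 and 589 both left out and the adipocyte covariate. The smallest adjusted p over these settings was 0.0655. It did not hold without a filter on low counts, where 1437 of 25553 tested genes were called. Of the 27 members tested in the main fit, 4 passed there, all higher in *Tarsl2*-/- muscle (*Slc43a1*, *Slc36a2*, *Slc1a3* and *Slc7a10*). Members under the main filter were not counted in that setting. That fit gave every gene the spread of the trend (infinite prior degrees of freedom, against 7.23 with the filter). The median over the members lay between -0.04 and 0.11 when each mouse was left out, and it was negative without mouse 589 and without mouse 591. The log2 fold change of *Tarsl2* lay between -3.91 and -3.69 when each mouse was left out, and was -3.66 with mice 584 and 589 both left out. 

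The sign of 11 members changed with a setting, among them *Slc1a3* and *Slc1a5*, which changed sign without mouse 589. With upper quartile scaling *Slc38a6* was at -7.48e-06, and with mice 584 and 589 both left out at -0.10. With the adipocyte covariate *Slc3a2* was at -0.0377, *Slc43a2* at 0.0189 and *Slc7a6* at 0.0116. With each mouse left out in turn, the ranges were -0.0746 to 0.34 for *Slc1a1*, -0.10 to 0.95 for *Slc1a3*, -0.0884 to 0.48 for *Slc1a5*, -0.53 to 0.0231 for *Slc38a1*, -0.12 to 0.16 for *Slc38a6*, -0.041 to 0.15 for *Slc38a9*, -0.10 to 0.16 for *Slc3a2*, -0.10 to 0.11 for *Slc43a2*, -0.37 to 0.00997 for *Slc7a5*, -0.17 to 0.0105 for *Slc7a6* and -0.23 to 0.0138 for *Slc7a8*. None of these had an adjusted p under the threshold in any of those fits. No paired analysis was possible because the litter of each mouse is not given in the sources used here. Depth limits the 15 members under the filter, which had at most 11 counts in any library.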
